A study of Mus musculus with 19 samples.

Results

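The genes described here are 9 enzymes of 2 families that modify drugs, hormones and other small molecules in the liver, namely the sulfotransferases Sult1a1, Sult1b1, Sult1d1, Sult2a8, Sult3a1 and Sult5a1 and the flavin monooxygenases Fmo1, Fmo2 and Fmo5. They were chosen by symbol, 6 of the first family and 3 of the second, from a table of 24054 genes. Of the 9, 8 were found under these symbols, and Sult2a8 was found under 2810007J24Rik, a synonym that RefSeq gives for it. The table also holds 19 other Sult and Fmo genes, which serve as relatives below.

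Liver RNA had been sequenced from Raly flox/flox mice in which Raly, a heterogeneous nuclear ribonucleoprotein, was either deleted or kept. All mice carried the floxed alleles, were on a C57BL/6 background, ate chow and were injected with an adeno-associated virus (AAV) 4 weeks before the liver was taken. The L-RalyKO group received AAV8.TBG.Cre, in which the hepatocyte promoter TBG drives Cre, and the control group, called wild type in the labels, received AAV8.TBG.GFP. Each group had 3 livers, numbered 1 to 3 (L-RalyKO 1 and so on), and the age of the animals at sampling is not given for them. The paper's figure legend gives 4 per group for its liver RNA sequencing, so that the sets differ in size. The virus is meant to act in hepatocytes, so that the other cells of the liver kept Raly, and whole tissue was sequenced. Males were the default sex of the paper's animals. Xist was at or below 0.378 in all 6 livers while Ddx3y, a Y-linked gene, was between 75.2 and 90.9. Of 4 tested Y-linked genes 1 was called lower in L-RalyKO, against 3.19% of all genes. This was Eif2s3y (mean 40.0 against 46.8, log2 fold change -0.22, limma adjusted p = 0.0359). With any 1 liver left out, 0 of the 4 were called. The labels number the libraries as replicates without saying that each is a separate animal, and p values here measure the spread between these libraries.

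Sulfotransferases of the cytosol move a sulfonate group from the donor 3'-phosphoadenosine 5'-phosphosulfate (PAPS) to a hydroxyl or amine group, which usually makes the acceptor more soluble in water and easier to excrete. PAPS is made from sulfate and ATP by the synthases Papss1 and Papss2. Flavin monooxygenases hold FAD, take electrons from NADPH and place 1 atom of oxygen on a nitrogen or sulfur of their substrates, next to and independently of the cytochrome P450 enzymes. Some of these genes differ in level between male and female mouse liver, among them Sult3a1, which is female-predominant.

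A level is given as the deposited value, which is a read count per gene expressed as CPM, the reads of a gene relative to the total of the library, with that total adjusted by a scaling factor. It is not divided by gene length. Reads per liver were between 28302983 and 38052705, and 3 reads corresponded to a value between 0.0789 and 0.105. Raly itself was at 6.34, 6.61 and 7.39 in L-RalyKO and at 50.1, 48.6 and 46.8 in control livers (log2 fold change -2.67, SE 0.069, limma adjusted p = 6.92e-07, lower in 3 of 3). The hepatocyte genes Alb, Ttr, Apoa1, Cps1, Tat and Serpina1c summed to 99100 to 100170 in L-RalyKO and 88985 to 97835 in control livers. Every L-RalyKO sum was thus above every control sum, and all 6 genes had a positive log2 fold change (median 0.11). Of these 6, 0 passed limma's adjusted test, against 6.55% of all genes tested (2 higher at an unadjusted p under 0.05, 2 called higher by DESeq2, and 1 by limma without control 3). In whole tissue, fewer cells of a type and less RNA per cell cannot be told apart.

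Among the 8 members with enough reads to be tested, Sult1d1 was the 1 called higher in L-RalyKO livers at a limma adjusted p under 0.05. It was higher by 48.2% of its control level. All 8 had a higher mean in L-RalyKO than in control livers, with differences between 7.20% for Sult2a8 and 79.8% for Sult5a1. In 6 of the 8, every L-RalyKO liver lay above every control liver, as it did in 14.4% of the 11580 genes tested. The unadjusted limma p was under 0.05 with a higher L-RalyKO level in the same 6 members, against 11.8% of all genes. It was under 0.05 in either direction in 2632 of the 11580 genes, 1365 of them higher and the rest lower. After adjustment over all genes (Benjamini-Hochberg, threshold 0.05) 1 of 8 was higher, against 3.36% of genes higher, 3.19% lower and 6.55% called in either direction. The median log2 fold change of the 8 was 0.29, and that of all tested genes was 0.0044, with 51.2% of genes above 0. The 6 hepatocyte genes named above were also all above 0, with a median of 0.11. These counts describe genes that were chosen with earlier results of the data known.

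**Figure D1:**
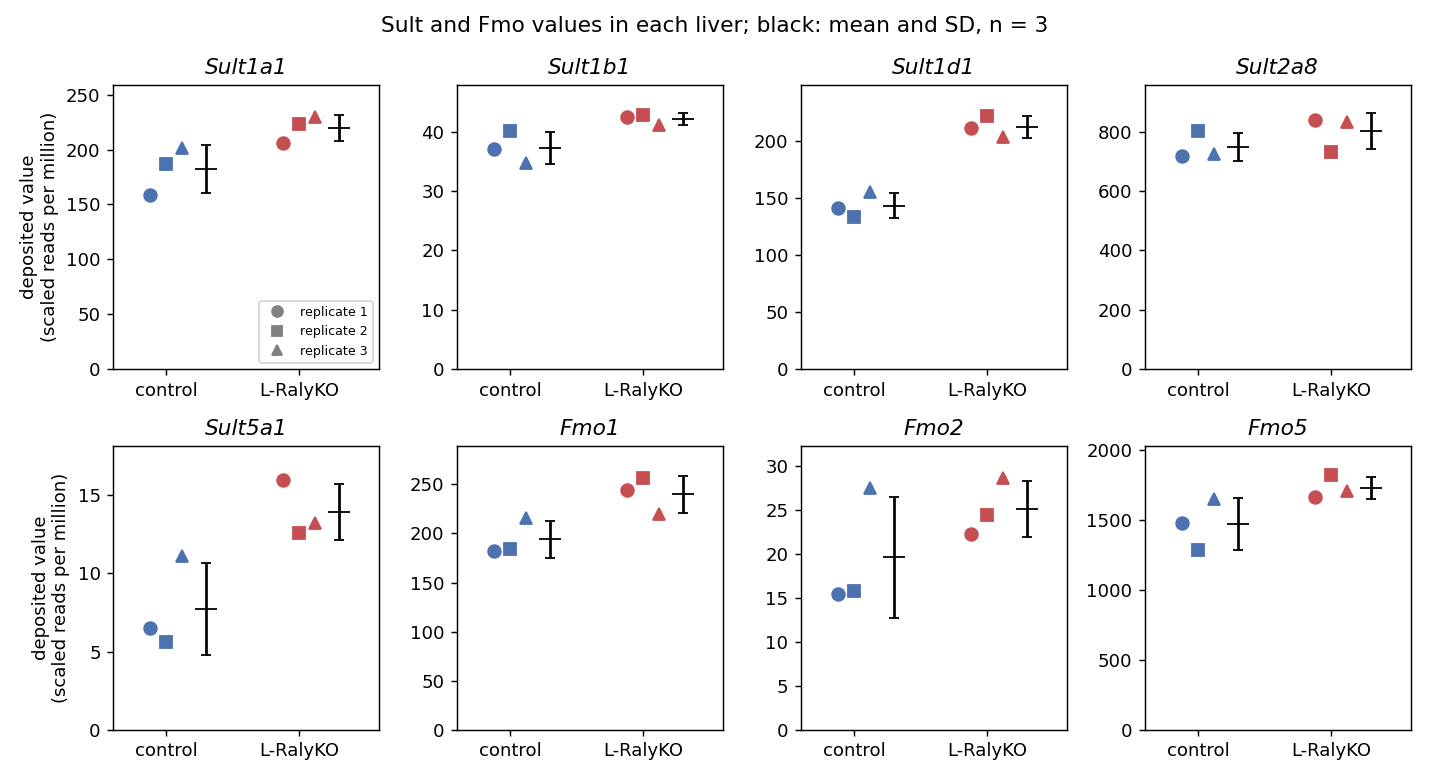
Deposited value (scaled CPM, linear axes from 0) of the 8 tested members in each liver, control in blue and L-RalyKO in red, with symbols for the replicate numbers and black bars for the mean and SD of 3 livers. The groups do not overlap in 6 panels and overlap for Sult2a8 and Fmo2, and control 3 is the highest control for 6 members.

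The sequence around the RefSeq start site is shown for 3 members. Sult1d1 was the member called, Sult5a1 had the largest fold change, and Sult1a1 holds the box CCAAT, which the transcription factor NFY binds. The sequences are RefSeq promoter windows of 250 bases before and 50 after a start site from the GRCm38.p6 table. Each was matched exactly and once to NCBIM37 (mm9), the build of the reads, at chr5:87997982-87998281 (minus strand) for Sult1d1, chr8:125682131-125682430 (minus strand) for Sult5a1 and chr7:133819883-133820182 (minus strand) for Sult1a1. These starts lie 21, 35 and 14 bases inside the gene starts of GENCODE vM1. The sequences are written 5′ to 3′ on the strand of the gene, and capitals mark CCAAT or its reverse complement ATTGG.
Sult1d1: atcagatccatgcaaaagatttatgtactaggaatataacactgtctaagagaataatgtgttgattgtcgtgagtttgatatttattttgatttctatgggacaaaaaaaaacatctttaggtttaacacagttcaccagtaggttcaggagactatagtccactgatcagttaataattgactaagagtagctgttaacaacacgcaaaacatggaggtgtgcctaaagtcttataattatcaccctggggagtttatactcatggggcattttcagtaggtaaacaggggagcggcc
Sult5a1: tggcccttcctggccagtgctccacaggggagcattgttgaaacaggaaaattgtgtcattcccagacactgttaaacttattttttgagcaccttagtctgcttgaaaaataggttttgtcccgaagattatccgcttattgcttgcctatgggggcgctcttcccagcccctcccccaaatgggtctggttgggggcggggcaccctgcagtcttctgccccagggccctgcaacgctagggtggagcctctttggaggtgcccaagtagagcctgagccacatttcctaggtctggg
Sult1a1: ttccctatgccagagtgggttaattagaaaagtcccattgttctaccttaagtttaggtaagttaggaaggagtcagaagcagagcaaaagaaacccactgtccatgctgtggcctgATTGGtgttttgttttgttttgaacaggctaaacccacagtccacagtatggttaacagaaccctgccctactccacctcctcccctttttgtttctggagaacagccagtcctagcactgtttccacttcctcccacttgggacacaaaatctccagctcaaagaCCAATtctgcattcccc

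The table held 11 windows for 8 of the 9 members. Fmo1 had none. CCAAT on either strand was found in 3 of the 11 windows, and in 37.4% of all 32841 windows of the same length in the table. In Sult1a1 it occurred at 2 places, with the first base 133 bases before and 33 bases after the start, and in Fmo5 it lay 211 bases before a RefSeq start that is itself 215 bases inside the GENCODE start, hence within the annotated gene. The third window belonged to a second start of Sult2a8, which lies 8218 bases inside the GENCODE start, with the box 210 bases before that start. The windows of Sult1b1, Sult1d1, Sult3a1, Sult5a1 and Fmo2 did not hold these letters, which says nothing about factors that bind there.

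The phenol-type sulfotransferases Sult1a1, Sult1b1 and Sult1d1 act on phenols, thyroid hormones and catecholamines or other amines, respectively. Sult1b1 and Sult1d1 are neighbours on the minus strand of chromosome 5, Sult1b1 (ENSMUSG00000029269.5) from 87942364 to 87967220 and Sult1d1 (ENSMUSG00000029273.9) from 87983670 to 87998052, with 16450 bases between them. Each has 8 exons in its longest GENCODE vM1 transcript. Their exons share no 50-base word with another gene, so that reads of one are not readily taken for the other.

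Sult1d1 was at 211.6, 222 and 204 in L-RalyKO livers 1 to 3 and at 141, 134 and 155 in control livers 1 to 3. The lowest L-RalyKO liver lay 48.5 above the highest control, a gap larger than the SD of either group (9.29 in L-RalyKO and 10.98 in control, n = 3 each). This gave a log2 fold change of 0.57 (SE 0.064, 95% interval 0.42 to 0.71), with a limma adjusted p of 0.00241, at rank 64 of 11580 genes. It stayed past the threshold in each of the 15 alternative analyses, with fold changes between 0.52 and 0.62.

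Sult1b1 was at 42.5, 42.9 and 41.0 in L-RalyKO livers and at 37.1, 40.1 and 34.7 in control livers. The L-RalyKO livers were close together (SD 0.966 around a mean of 42.1) and the closest pair across groups, L-RalyKO 3 and control 2, differed by 0.934. Its log2 fold change was 0.17 (SE 0.062, 95% interval 0.032 to 0.32, limma adjusted p = 0.139), which did not pass the threshold. The intervals of Sult1b1 and Sult1d1 did not overlap, and the difference between the fold changes of these neighbours was not tested.

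Sult1a1 lies on the minus strand of chromosome 7 from 133816379 to 133819946 (ENSMUSG00000030711.8, 7 exons). Part of its exons overlaps Ccdc101 on the opposite strand, and whether the reads were counted by strand is not given in the sources used here. Sult1a1 was at 207, 223 and 229.8 in L-RalyKO livers and at 158, 187 and 201 in control livers. Control 3 came within 5.12 of the lowest L-RalyKO liver, and control 1 was well below the others. With means of 219.8 in L-RalyKO and 182 in control livers, which had the wider spread (SD 21.9, n = 3), the log2 fold change was 0.27 (SE 0.086, 95% interval 0.078 to 0.47, limma adjusted p = 0.0995). It was 0.18 without control 1 and 0.35 without control 3, where it passed the threshold (limma adjusted p = 0.0430). It also passed with DESeq2 (adjusted p = 0.0381) and in limma with same-numbered livers as a block (adjusted p = 0.0369). The adjusted p ran from 0.0369 to 0.231 over all alternatives.

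Sult2a8 is a sulfotransferase of bile acids. It lies on the minus strand of chromosome 7 from 14996036 to 15032118 (ENSMUSG00000030378.7, 7 exons). Its values were 841, 733 and 835 in L-RalyKO livers and 719, 804 and 724 in control livers. The groups overlapped, since L-RalyKO 2 was below control 2. Its log2 fold change was 0.099 (95% interval -0.066 to 0.26, limma adjusted p = 0.466), so that a rise of up to 0.26 on the log2 scale lies within the interval. It was 0.16 without L-RalyKO 2, 0.15 without control 2 and 0.065 without L-RalyKO 1.

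Sult5a1, whose substrates are little known, lies on the minus strand of chromosome 8 from 125666747 to 125682215 (ENSMUSG00000000739.7, 7 exons). It was at 16.0, 12.6 and 13.2 in L-RalyKO livers and at 6.53, 5.61 and 11.1 in control livers. Control 3 stood nearly at the level of the lowest L-RalyKO liver, 1.48 below it, while the other controls were well below it. These values rest on 434 to 549 reads per L-RalyKO liver and 160 to 411 reads per control liver. On the log2 scale the fold change was 0.82 (SE 0.203, 95% interval 0.35 to 1.28), the largest of the 8, and its limma adjusted p was 0.0502. Without control 3 it was 1.08 (limma adjusted p = 0.00244), and over all alternatives the adjusted p ran from 0.000899 to 0.156.

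Sult3a1 was close to absent. It lies on the plus strand of chromosome 10 from 33583741 to 33599322 (ENSMUSG00000069668.2, 6 exons), and 6.55% of its 50-base words also occur in Gm4794, which RefSeq names Sult3a2. The L-RalyKO livers had 0 reads each, which allows a value of up to 0.0789 to 0.0873 per liver, and the control livers had 2, 3 and 2 reads (values of 0.0596, 0.105 and 0.0541). All 6 livers were thus at or under the limit of 3 reads, Sult3a1 was below the minimum mean for testing, and no fold change is given. The control livers were all above the L-RalyKO livers, by these 7 reads in all, and the exact permutation p (two-sided) was 0.1, the smallest possible. These limits cover counting error only.

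Of the flavin monooxygenases, Fmo1 and Fmo2 are neighbours on the minus strand of chromosome 1, Fmo1 (ENSMUSG00000040181.8, 9 exons) from 164759692 to 164796679 and Fmo2 (ENSMUSG00000040170.7, 9 exons) from 164804448 to 164828857, with 7769 bases between them. Fmo1 is the classical drug-oxidizing form of mouse liver and kidney, and Fmo2 is best known from the lung. Neither of them shares a 50-base word with another gene.

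Fmo1 was at 245, 256 and 219.6 in L-RalyKO livers and at 182, 184 and 216 in control livers. The groups did not overlap, but L-RalyKO 3 and control 3 were only 4.02 apart. The log2 fold change was 0.31 (SE 0.081, 95% interval 0.12 to 0.49, limma adjusted p = 0.0594), with means of 240.2 ± 18.8 and 194 ± 18.6 (SD, n = 3). Without control 3 it was 0.38 (limma adjusted p = 0.0198), and the adjusted p ran from 0.00736 to 0.173 over all alternatives.

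Fmo2 was at 22.3, 24.4 and 28.5 in L-RalyKO livers and at 15.4, 15.8 and 27.5 in control livers. Control 3 lay above L-RalyKO 1 and 2, and the other controls lay below all 3 L-RalyKO livers. The log2 fold change was 0.38 (SE 0.197, 95% interval -0.065 to 0.83, limma adjusted p = 0.291). Without control 3 it was 0.64 and past the threshold (limma adjusted p = 0.0115, range over all alternatives 0.0115 to 0.613), so that this 1 liver decided the call.

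Fmo5, an enzyme of the Baeyer-Villiger type whose loss makes mice leaner with lower plasma cholesterol, lies on the plus strand of chromosome 3 from 97432727 to 97459205 (ENSMUSG00000028088.8, 9 exons). Its values were 1666, 1820.4 and 1707 in L-RalyKO livers and 1479, 1282 and 1653 in control livers. L-RalyKO 1 and control 3 differed by 12.8, less than the SD of either group (80.1 and 185). This is a log2 fold change of 0.24 (SE 0.092, 95% interval 0.031 to 0.45, limma adjusted p = 0.165), and of 0.15 without control 2 (limma adjusted p = 0.363, range over all alternatives 0.0548 to 0.363). The exact permutation test (two-sided) gave p = 0.1, the smallest that 3 against 3 allows, for each of the 6 tested members whose groups were apart, 0.2 for Sult2a8 and 0.3 for Fmo2.

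**Figure D2:**
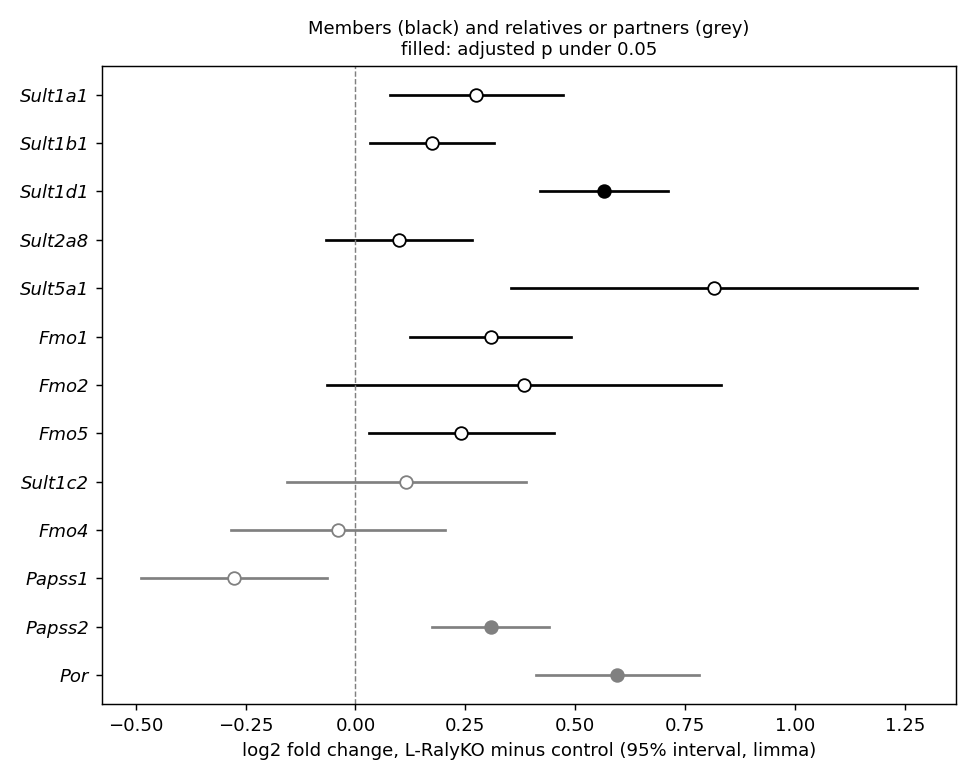
Log2 fold change (L-RalyKO minus control, horizontal axis) with its 95% interval from limma for the 8 tested members in black and for relatives and partner enzymes in grey, with filled points at an adjusted p under 0.05. Sult1d1 is the filled member at 0.57, Sult5a1 lies farthest to the right with a wide interval, and Papss2 and Por are the filled partners.

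Control 3 was the highest control for 6 of the 8 tested members (Sult1a1, Sult1d1, Sult5a1, Fmo1, Fmo2 and Fmo5), and control 2 for the other 2. The coefficient of variation over control livers was between 6.36% for Sult2a8 and 38.0% for Sult5a1, and over L-RalyKO livers between 2.29% for Sult1b1 and 12.9% for Sult5a1. Without control 3, 5 of 8 members were higher at a limma adjusted p under 0.05 (Sult1a1, Sult1d1, Sult5a1, Fmo1 and Fmo2), against 3.92% of all genes. DESeq2 on the recovered reads called 4 of 8 (Sult1a1, Sult1d1, Sult5a1 and Fmo1), against 4.65% of genes higher. In edgeR's quasi-likelihood test, as in limma, Sult1d1 was the 1 member called (adjusted p = 0.00219).

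**Figure D3:**
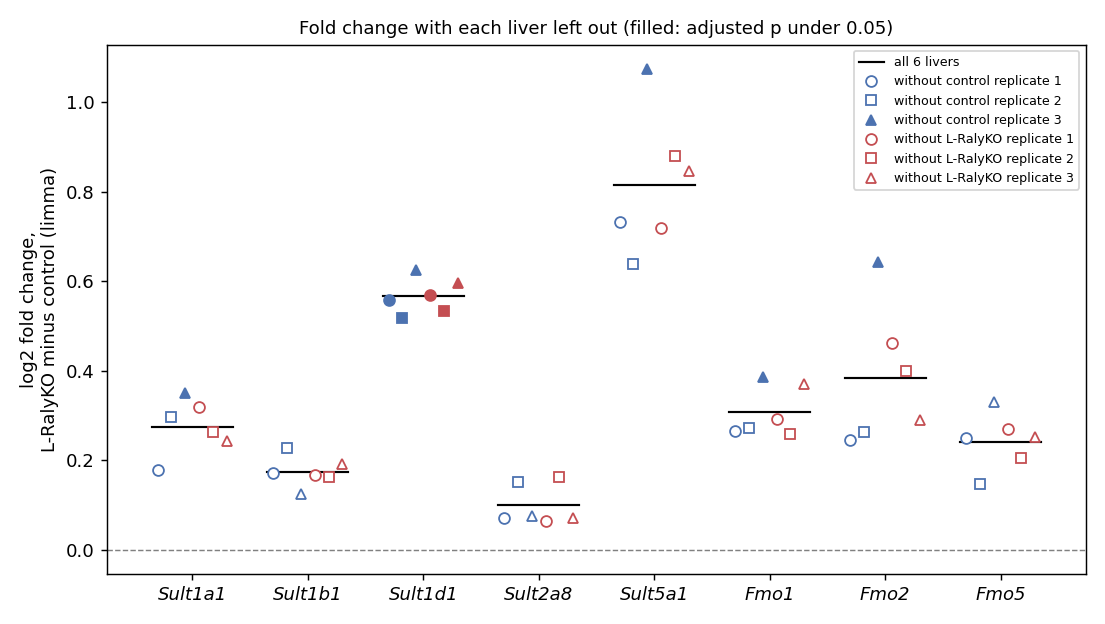
Log2 fold change (L-RalyKO minus control, vertical axis, limma) of the 8 tested members with all 6 livers (black line) and with each liver left out (symbols, filled at an adjusted p under 0.05). All values are above 0, those of Sult1d1 are all filled, and leaving out control 3 gives the filled triangles of Sult1a1, Sult5a1, Fmo1 and Fmo2.

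Levels of different genes were compared as scaled CPM per kilobase of exon. In control livers the order was Sult2a8 (317 ± 20.2), Fmo5 (259 ± 32.7), Sult1a1 (121 ± 14.5), Sult1d1 (58.3 ± 4.46), Fmo1 (45.1 ± 4.33), Sult1b1 (13.4 ± 0.979), Sult5a1 (4.39 ± 1.67), Fmo2 (3.53 ± 1.24) and Sult3a1 (0.0671 ± 0.0258), each with its SD over 3 livers. Sult5a1 and Fmo2 overlapped between livers and the other neighbours in this order did not. L-RalyKO livers had the same order, from 340.2 ± 25.6 for Sult2a8 and 305 ± 14.1 for Fmo5 through 86.4 ± 3.78 for Sult1d1 to 4.52 ± 0.575 for Fmo2 and 0 for Sult3a1. There Sult2a8 and Fmo5 overlapped. With the length of the longest transcript in place of all exons, Fmo1 (83.4 in control livers) came before Sult1d1 (59.3), so that the order of these genes depends on the length used.

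**Figure D4:**
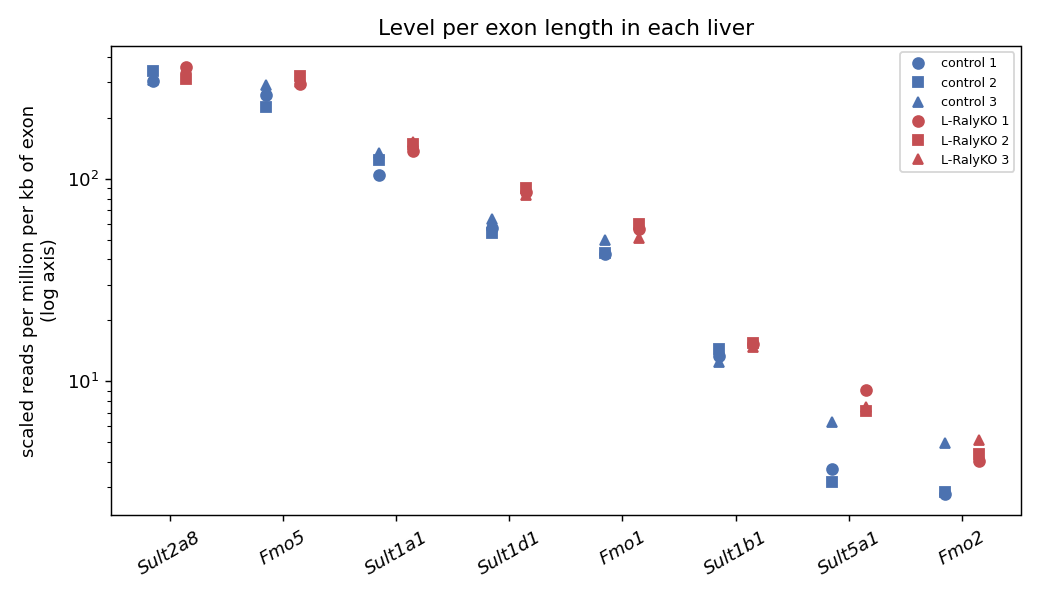
Scaled CPM per kilobase of exon (log axis) for the 8 tested members in each liver, control in blue and L-RalyKO in red, ordered by the control mean. Sult2a8, Fmo5 and Sult1a1 lie above 100 in every liver, Sult1d1 and Fmo1 between 42.4 and 90.4, Sult1b1 between 12.5 and 15.4, and Sult5a1 and Fmo2 at 9.05 or less.

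The other members of both families were mostly silent. Of 16 further cytosolic sulfotransferases 15 were in the table, 7 of these had no read in any liver, and Sult1c2 alone was tested, at 4.82 ± 0.791 in L-RalyKO and 4.35 ± 0.518 in control livers (log2 fold change 0.12, 95% interval -0.16 to 0.39, limma adjusted p = 0.619). Sult2a7 was at 0.407, 0.725 and 0.447 in L-RalyKO and at 1.01, 0.842 and 1.11 in control livers, from 155 reads in all, and fell under the minimum for testing. The estrogen sulfotransferase Sult1e1 (39 reads in all) was at 0.145, 0.348 and 0.289 against 0.119, 0.0351 and 0.162, and was not tested either. Sult2a1 to Sult2a6, Sult2b1, Sult3a2, Sult4a1, Sult6b1 and Sult6b2 had between 0 and 4 reads each.

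Fmo4 was at 5.69 ± 0.941 in L-RalyKO and 5.83 ± 0.0857 in control livers, with a log2 fold change of -0.040 (95% interval -0.28 to 0.20, limma adjusted p = 0.872). Fmo6 and Fmo9 had no read. Because Sult3a1 stayed under the minimum, the counts of tested members above leave it out.

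Papss2, the main PAPS synthase of liver, rose as well. It was at 208, 214 and 212 in L-RalyKO and at 159, 184 and 170.1 in control livers (log2 fold change 0.31, SE 0.059, limma adjusted p = 0.0194, higher in 3 of 3). The other synthase, Papss1, was at 3.66, 3.71 and 3.87 in L-RalyKO and at 5.25, 4.24 and 4.81 in control livers, lower in all 3 (log2 fold change -0.28, limma adjusted p = 0.118). Of 10 genes for PAPS synthesis, transport and removal 8 were tested, 1 was higher (Papss2) and 0 lower, against 3.36% and 3.19% of all genes, with a median log2 fold change of -0.090. At an unadjusted limma p under 0.05, 1 was higher, against 11.8% of all genes, and 3 were lower. In either direction 2632 of all 11580 genes passed this threshold, 1365 of them higher and the rest lower. Leaving out any of L-RalyKO 1, 2 and 3 or control 1 ended the call of Papss2, with 0 genes of the list called. Of 7 genes that oxidize cysteine to sulfate 0 passed limma's adjusted test, against 6.55% of all genes, with a median of 0.021. At an unadjusted p under 0.05, 1 of these was higher, against 11.8% of all genes, and 1 lower. DESeq2, limma without L-RalyKO 2 and limma with library-total scaling each called 1 lower, and limma without control 3 called 1 higher.

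The sulfatases and the sulfotransferases of other compartments were used for comparison, since they handle the same group. Of 11 tested sulfatase genes 2 were lower and 0 higher (median -0.068), where 3.19% of all genes were lower. These were Arsa, which removes sulfate from sulfatide in lysosomes and was at 57.2, 61.8 and 55.8 against 93.0, 79.5 and 91.8 (log2 fold change -0.59, limma adjusted p = 0.00333), and Sgsh, of heparan sulfate breakdown (-0.34, limma adjusted p = 0.0354). With 1 liver left out, the list had 2 calls without control 3 and 1 in each of the other 5 fits. Of 12 tested Golgi sulfotransferases 1 was higher and 1 lower (median 0.14), against 3.36% and 3.19% of all genes. At an unadjusted limma p under 0.05, 4 were higher, against 11.8% of all genes, and 1 was lower. Over all 11580 genes 2632 passed in either direction, 1365 of them higher and the rest lower. DESeq2 and limma without control 3 each called 2 higher and 1 lower. Hs3st3b1, which acts on heparan sulfate, was at 94.8 ± 2.17 in L-RalyKO against 73.3 ± 4.86 (log2 fold change 0.37, limma adjusted p = 0.00918), and Gal3st1, which makes sulfatide, was at 1.14 ± 0.530 against 2.92 ± 0.756 (-0.89, limma adjusted p = 0.0354). No gene of this list was called lower without L-RalyKO 1, L-RalyKO 3, control 1 or control 2. With a minimum mean of 5, Gal3st1 was not tested and 8 genes of the list remained.

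Among 12 tested genes for the supply of FAD and NADPH, Por rose and 0 fell (median -0.071), against 3.36% and 3.19% of all genes. At an unadjusted limma p under 0.05, 1 was higher, against 11.8% of all genes, and 4 were lower. Over all 11580 genes 2632 passed in either direction, 1365 of them higher and the rest lower. DESeq2 called 2 lower, edgeR 0 and limma without control 3 called 1 lower. Por passes electrons from NADPH to the cytochrome P450 enzymes, whereas flavin monooxygenases take them up directly. It was at 948, 966 and 874 in L-RalyKO and at 546, 631 and 672 in control livers (log2 fold change 0.60, SE 0.081, limma adjusted p = 0.00531). The lowest L-RalyKO liver was well above control 3, again the highest control.

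Sex-biased liver genes were examined because sulfotransferases are among them. Of 21 tested male-biased genes 5 were higher and 0 lower, with a median log2 fold change of 0.31 against 0.0044 over all genes, and a share of 3.36% of all genes called higher. The higher calls numbered 3 without L-RalyKO 1, 2 without L-RalyKO 3, 3 without control 1 and 2 without a filter on low values. EdgeR, DESeq2 and limma without control 3 also called 1 gene of the list lower. At an unadjusted limma p under 0.05, 10 were higher, against 11.8% of all genes, and 2 were lower. Those called in the main comparison were Gstp1, a glutathione transferase (0.71, limma adjusted p = 0.00196), Ugt2b1, a glucuronosyltransferase (0.60, limma adjusted p = 0.00254), the urinary protein Mup21 (0.46), the oxysterol hydroxylase Cyp7b1 (0.43) and Nudt7 (0.23). The list summed to 25734 to 30854 in L-RalyKO and 20227 to 23727 in control livers. Its largest parts were Serpina3k (mean 11257 in L-RalyKO against 9053 in control livers), Mup20 (5332 against 3668) and Mup7 (5052 against 3373). None of these was called (limma adjusted p = 0.0802, 0.134 and 0.506), and Mup7 in L-RalyKO 2 (2299) was below every control. Of 15 tested female-biased genes 0 were higher and 4 lower (median -0.24), against 3.19% of all genes lower, and without control 1 or control 2 1 gene was called higher. The 4 lower ones were Cyp2b9 (mean 2.07 in L-RalyKO against 50.1 in control livers, log2 fold change -4.10, limma adjusted p = 0.000406), Cyp2b13 (mean 0.0272 against 2.12), Gstt3 (-0.76) and Abcd2 (-0.52). At an unadjusted limma p under 0.05, 2 female-biased genes were higher and 6 lower. Of all 11580 genes 2632 passed this threshold in either direction, 1365 of them higher and the rest lower. The part of sex-biased expression in the values of the members was not tested.

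Markers of other cells of the liver were read beside the members. The tested markers of endothelial cells, macrophages, stellate cells, cholangiocytes and lymphocytes numbered 5, 5, 5, 3 and 1. None passed limma's adjusted test, against 6.55% of all genes. At an unadjusted p under 0.05, 1 stellate and 1 cholangiocyte marker were higher, and DESeq2, and limma without control 1, called 1 cholangiocyte marker higher. Their summed values overlapped between the groups in each list (126 to 159 in L-RalyKO against 144 to 154 in control livers for endothelial cells, 95.5 to 126 against 96.4 to 144 for macrophages). Of 6 adipocyte markers, Adipoq, Plin1, Lep and Retn were at or below 0.209 in all livers, and the fold changes of the others differed in sign. Cidec, which hepatocytes that store fat also make, was at 4.71, 6.30 and 5.58 in L-RalyKO and at 38.8, 7.54 and 14.1 in control livers (log2 fold change -1.41, limma adjusted p = 0.105, lower in all 3). Adrb3 was called higher (0.66, limma adjusted p = 0.0120), and without control 2 limma also called 1 adipocyte marker lower. The part of these markers in the values of the members was not tested.

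Genes with the most similar pattern were found for the member with the largest fold change in each family, by the root mean square difference of log2 values over the 6 livers after centring. For Sult5a1 they were Phf8 (0.133), Rapgef4 (0.139) and Arid5b (0.139), with log2 fold changes of 0.74, 0.96 and 0.92. For Fmo2 they were Gm4070 (0.0870), Tfrc (0.126) and Dact1 (0.126), with log2 fold changes of 0.30, 0.40 and 0.36. These genes were picked for their likeness over the same 6 livers, so that their fold changes follow from the choice and are given without a test.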

How the data were processed

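The authors deposited a scaled signal per gene: the reads of a gene per unit of library size, where the size had been multiplied by a scaling factor. The methods name stranded KAPA libraries, TopHat v2.0.2 on mm9 and Cufflinks v2.0.2, and do not describe the deposited values. In all 6 columns 100% of values were whole multiples of 1 read (tolerance 0.01 read), and the factors equalled TMM factors computed with edgeR, so that whole reads were recovered. The design foresaw either unit.

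Columns were matched to samples by virus and replicate number. L-RalyKO and control livers were compared on log2(value + 1) by limma 3.58.1 with an intensity trend (R 4.3.3). This scale understates the change of low genes. Genes with a mean of at least 1 were tested (11580) and p values adjusted by Benjamini-Hochberg. Intervals are at the 95% level. Libraries of a group differed by 12.6 to 84.3 times the sampling noise, and none was a copy of another. Exon lengths and coordinates come from GENCODE vM1 on NCBIM37, the mm9 assembly.

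Alternatives were edgeR 4.0.16, DESeq2 1.42.0 and limma voom on the whole reads, a pseudocount of 0.1, no filter, a minimum mean of 5, library-total and upper-quartile scaling, a replicate block and leaving out each liver. The models were tested on simulated data. Members and lists were chosen with earlier results of these data known. Named genes are the members, Raly, closest relatives, PAPS synthases, up to 4 genes called per list, called neighbours and the 3 genes most alike to Sult5a1 and Fmo2. Beyond this rule, Por, Ddx3y, Cidec and other markers are named for their list, and Nudt7 as the remaining call of its list. Serpina3k, Mup20 and Mup7 are named for their part in the sum of their list. A relative of the members is not reported here. The ATAC-seq and ChIP-seq samples were not analysed here.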

Additional observations from a re-analysis of the deposited data

How the results depend on the processing

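Of 120 fold changes of members under 15 alternatives, 109 kept their direction and their side of the threshold, 11 gained a call, 0 lost one and 0 reversed. The members called numbered 4 with DESeq2 (beside Sult1d1, Sult1a1 at 0.27 with adjusted p = 0.0381, Sult5a1 at 0.84 with 0.000899 and Fmo1 at 0.30 with 0.00736). They numbered 2 with library-total scaling (Sult5a1 at 0.78, adjusted p = 0.0455 in limma), where 324 of 11580 genes were higher, and 3 with upper-quartile scaling (Sult5a1 at 0.82, adjusted p = 0.0473, and Fmo1 at 0.31, adjusted p = 0.0456, in limma), where 425 were higher. With 1 liver left out, members called numbered 1 to 5, and the 5 came without control 3. Fold changes then ran from 0.18 to 0.35 for Sult1a1, 0.64 to 1.08 for Sult5a1, 0.26 to 0.38 for Fmo1, 0.24 to 0.64 for Fmo2, 0.15 to 0.33 for Fmo5, 0.065 to 0.16 for Sult2a8 and 0.12 to 0.23 for Sult1b1. Over all alternatives the adjusted p of Sult1a1 ran from 0.0369 to 0.231. The cause was not tested.

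The deviations of same-numbered livers from their group means had correlations of 0.066, -0.024 and 0.020, and 3 of 6 livers correlated best with their own number. With 3 livers per group this cannot decide whether the numbers pair the livers. With the replicate block 2 members were called (Sult1a1 at 0.27, adjusted p = 0.0369 in limma), and 704 genes in all (353 higher) against 758 (389 higher). The block left 1 sulfatase called and 0 Golgi sulfotransferases lower, and it called 1 gene for FAD and NADPH supply and 1 male-biased gene lower. The block also called 1 cholangiocyte marker higher. Without a filter, 1 sulfatase was called, 2 Golgi sulfotransferases were higher and 0 lower, and of the PAPS genes 1 was higher and 1 lower. All genes called numbered 484 without a filter, where more genes were tested, and 332 to 813 with 1 liver left out, namely 332 without L-RalyKO 1, 437 without L-RalyKO 2, 491 without L-RalyKO 3 and 369 without control 1. Of the calls, 40.9% were higher with library-total scaling against 51.3% in the main analysis. The level order kept 7 of 8 neighbouring pairs with the longest transcript. Sult3a1, under the minimum mean of 1, entered only the analysis without a filter, where the 1 member called was Sult1d1.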

Other observations

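Of 20 tested genes within 100 kb of a member that are not members themselves, 10 had a positive log2 fold change, with a median of 0.014. Among all genes 51.2% were above 0. Limma called 1 of the 20 higher and 1 lower, against 3.36% and 3.19% of all genes. Chd1l, a chromatin remodeller gene 18601 bases from Fmo5, was higher in L-RalyKO livers (mean 16.6 against 12.5, log2 fold change 0.39, limma adjusted p = 0.0185). Zfp276, a zinc-finger gene 95880 bases from Sult5a1, was lower (mean 34.0 against 56.7, log2 fold change -0.72, limma adjusted p = 0.00396). These neighbours went in opposite directions, and neither overlaps the member beside it.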
